A study of Homo sapiens with 6 samples.

Results

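The genes described here encode collagen chains and a fixed set of other matrix proteins in SW480 cells after ZEB1 knockdown. Members were taken by gene symbol, as every listed gene named COL, a number, A and a number, together with FN1, TGFBI, SPARC, THBS1, THBS2, TNC, FBN1, FBN2, FBLN1, POSTN, LOX and LOXL1 to LOXL4. Of the 32029 genes listed, 55 were members, 41 of them collagens and 14 glycoproteins or cross-linking oxidases. COL6A5, COL9A1, COL25A1 and POSTN were not analysed here.

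SW480 is a human colorectal adenocarcinoma line that expresses ZEB1, a zinc-finger repressor of epithelial genes. Total RNA was sequenced from 6 cultures of the wild-type line, collected 48 h after transfection with a control siRNA (siControl, named siNC in the sample labels, n = 3) or with siRNA against ZEB1 (siZEB1, n = 3). The comparison asks which transcripts changed when ZEB1 was depleted. The cultures are described as biological replicates of 1 cell line. Each p-value therefore sets the difference between the groups against the spread between cultures of that line. The siRNA sequences were not given in the sources used here. An untransfected culture was not analysed here.

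Collagens are trimers of alpha chains that fold in the endoplasmic reticulum and assemble outside the cell into fibrils, networks or filaments. Fibrils and elastic fibres are then cross-linked by the lysyl oxidases, secreted copper enzymes that oxidise lysine residues. Glycoproteins such as fibronectin and tenascin bind these fibres and the receptors of cells, and in colorectal tumours most of the fibrillar collagen is made by fibroblasts rather than by the carcinoma cells.

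Each culture gave 19040636 to 22357633 reads assigned to genes. ZEB1, the targeted gene, had 1247, 1276 and 908 reads in siControl and 136, 132 and 162 reads in siZEB1. Its level was 54.2 ± 6.24 CPM (counts scaled to library size, SD, n = 3) in siControl and 7.51 ± 0.843 CPM in siZEB1, which is -2.85 on the log2 scale (SE 0.11, edgeR quasi-likelihood test, adjusted p = 4.85e-12). Among 10 epithelial markers with a row, KRT8 and KRT18 were the most abundant. Of the 7 that were tested, EPCAM, VIL1 and KRT19 were higher in siZEB1 and CDX2 was lower. Over all genes tested, 21.2% were lower and 19.0% higher. CDH17, LGALS4 and GPA33, not tested, had at most 17 reads in a culture. The 10 markers summed to between 4815 and 5438 CPM in siControl and between 5330 and 6003 CPM in siZEB1. Of 9 fibroblast markers listed, 6 had a row and 3 were tested, and of these PDGFRB and TAGLN were called higher. The 6 together reached 25.2 to 27.0 CPM in siControl and 31.7 to 34.1 CPM in siZEB1. The fibroblast markers LUM, THY1 and PDGFRA had at most 2 reads in any culture. The 2 endothelial markers summed to 2.02 to 2.72 CPM in siControl and 1.54 to 2.60 CPM in siZEB1, and the 3 leukocyte markers to 0.376 to 0.759 and 0.795 to 0.993 CPM, with CD68 at 0 reads in 5 cultures. In bulk RNA, fewer cells of a type and less RNA per cell cannot be told apart.

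More of the matrix genes fell than rose after ZEB1 knockdown. Of the 55 members, 30 had enough reads to be tested, and 12 of these were lower and 5 higher in siZEB1 at an adjusted p under 0.05. Thus 40% of the tested members were lower and 16.7% higher, where 21.2% of all 14996 genes tested were lower and 19.0% higher. The other 13 tested members were not called. The median log2 fold change of the 30 members was -0.20, beside -0.0055 over all genes tested. The 3 cultures of each group did not overlap in CPM for 20 of the 30 members, a pattern found in 49.5% of all genes tested. Because members with few reads were not tested, these counts describe the 30 tested genes and not all 55. Among the 18 tested collagens 6 fell and 3 rose, and their median log2 fold change was -0.28. Among the 12 tested glycoproteins and oxidases 6 fell and 2 rose, and theirs was -0.15.

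The 55 members held a small share of the RNA. They took 0.110%, 0.114% and 0.115% of the reads in the 3 siControl cultures and 0.0896%, 0.0915% and 0.0884% in the 3 siZEB1 cultures. SPARC and FBLN1 together supplied between 50.6% and 53.4% of these reads in each culture. The collagens alone summed to 281, 294 and 314 CPM in siControl and to 244, 243 and 237 CPM in siZEB1, so the highest siZEB1 culture lay below the lowest siControl culture.

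**Figure D1:**
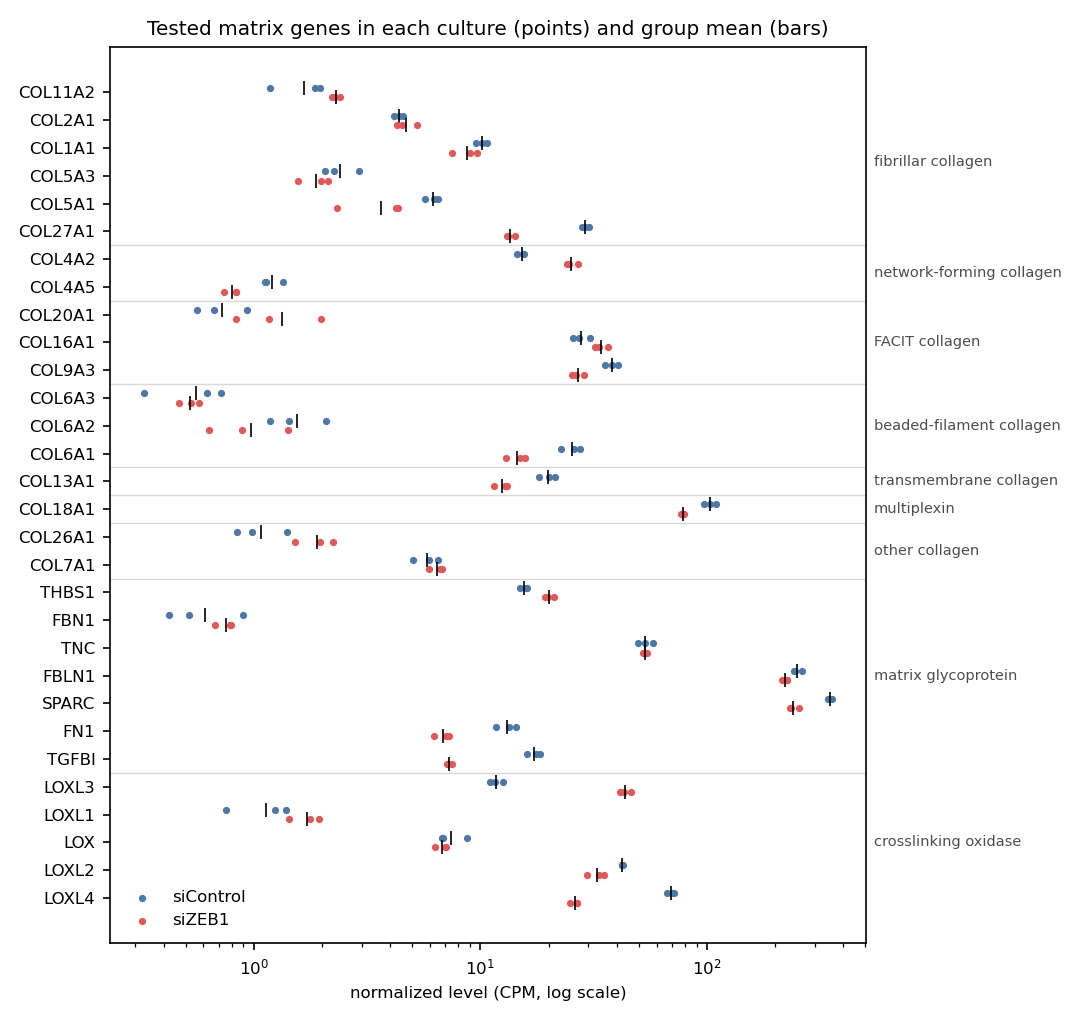
Normalized level (CPM, log scale) of the 30 tested matrix genes, grouped by protein class. Points are cultures (siControl blue, siZEB1 red, n = 3 each) and black bars are group means. SPARC and FBLN1 stand furthest right at over 200 CPM in every culture, while LOXL3 and LOXL4 show wide gaps between the groups in opposite directions.

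The glycoproteins that fell were TGFBI, FN1, SPARC and FBLN1. TGFBI (chromosome 5, 136028895 to 136063818, plus strand) encodes a secreted protein that is induced by TGF-beta and binds collagen and integrins. Its levels were 16, 18.3 and 17.5 CPM in siControl and 7.52, 7.23 and 7.16 CPM in siZEB1. Every siZEB1 culture was below every siControl culture, and the spread within siZEB1 was small (7.30 ± 0.193 CPM, against 17.3 ± 1.15 CPM in siControl). The log2 fold change was -1.24 (SE 0.10, adjusted p = 6.27e-08).

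FN1 (chromosome 2, 215360440 to 215436172, minus strand) encodes fibronectin, which forms fibrils around cells and is widely used as a mesenchymal marker. It was at 13.4, 14.3 and 11.7 CPM in siControl and at 7.04, 6.24 and 7.26 CPM in siZEB1. The groups were clearly separated, the log2 fold change being -0.94 (SE 0.12, adjusted p = 6.41e-06). SPARC (chromosome 5, 151661096 to 151687165, minus strand), a collagen-binding protein that takes part in matrix assembly, was the most abundant member per length at 71.9 RPKM (CPM divided by exon length in kilobases) in siControl and 49.7 RPKM in siZEB1. It stood at 342, 356 and 345 CPM in siControl and at 235, 254 and 232 CPM in siZEB1. All 3 siZEB1 cultures were lower, and the log2 fold change was -0.53 (SE 0.056, adjusted p = 1.06e-06).

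FBLN1 encodes fibulin-1, a component of basement membranes and elastic fibres. It was at 243, 244 and 261 CPM in siControl and at 226, 226 and 213 CPM in siZEB1. The groups did not overlap, but the step was small: the log2 fold change was -0.17 (SE 0.057, adjusted p = 0.026). Leaving out siControl culture 2 or 3 ended this call (adjusted p = 0.0526 and 0.0667), as did leaving out siZEB1 culture 1, 2 or 3 (adjusted p = 0.0667, 0.0554 and 0.0869). The fit with the replicate number as a block ended it too (adjusted p = 0.124).

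THBS1 (chromosome 15, 39581079 to 39599466, plus strand) was the glycoprotein that rose. It encodes thrombospondin-1, a matricellular protein that inhibits angiogenesis and activates latent TGF-beta. Its levels were 16.1, 15.9 and 14.9 CPM in siControl and 19.9, 19.3 and 21.2 CPM in siZEB1. The lowest siZEB1 culture was above the highest siControl culture, the log2 fold change being 0.37 (SE 0.088, adjusted p = 0.00292).

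TNC, which encodes tenascin-C, an oligomeric glycoprotein of remodelling tissue and tumour stroma, was abundant and not called. Its levels were 53.1, 57.6 and 49.8 CPM in siControl and 53.3, 52.1 and 54.4 CPM in siZEB1, with the siZEB1 cultures inside the siControl range. The log2 fold change was -0.0078 (SE 0.072, adjusted p = 0.944), and its sign turned positive when siControl culture 2 or siZEB1 culture 2 was left out. FBN1, the gene of the microfibril protein fibrillin-1, was under 1 CPM in each culture and was not called (adjusted p = 0.587).

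Of the 5 lysyl oxidase genes, 2 fell, 1 rose and 2 were not called. LOXL3 (chromosome 2, 74532414 to 74555690, minus strand) had the largest fold change of any tested member in either direction. It was at 11, 12.5 and 11.6 CPM in siControl and at 42.9, 46.0 and 41.3 CPM in siZEB1. The siZEB1 cultures were all far above the siControl cultures, and the log2 fold change was 1.89 (SE 0.087, adjusted p = 4.27e-11).

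LOXL4 (chromosome 10, 98247690 to 98268250, minus strand) changed the other way. It was at 66.3, 71.6 and 69.9 CPM in siControl and at 26.6, 25 and 26.6 CPM in siZEB1. Its log2 fold change of -1.41 (SE 0.072, adjusted p = 1.97e-10) was the largest decrease among the tested members. LOXL2, which oxidises matrix substrates and has also been described in the nucleus, was at 42.8, 42.0 and 42.1 CPM in siControl and at 35.3, 33.5 and 29.4 CPM in siZEB1. Its groups did not overlap, and the log2 fold change was -0.37 (SE 0.079, adjusted p = 0.00126).

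LOX, the founding enzyme of the family, was at 7.43 ± 1.10 CPM in siControl and 6.76 ± 0.409 CPM in siZEB1, and the difference did not pass the test (log2 fold change -0.14, SE 0.13, adjusted p = 0.445). LOXL1, which is needed for elastic fibre renewal, was at 0.752, 1.38 and 1.24 CPM in siControl and 1.43, 1.77 and 1.93 CPM in siZEB1. These groups did not overlap, but the call was not made (log2 fold change 0.60, SE 0.28, adjusted p = 0.102).

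Per length of exon, the order of the family differed between the groups. In siControl the order was LOXL4 (19.0 ± 0.741 RPKM), LOXL2 (7.41 ± 0.0787), LOXL3 (2.69 ± 0.178), LOX (1.34 ± 0.198) and LOXL1 (0.310 ± 0.0913), with no overlap between neighbours. In siZEB1 it was LOXL3 (9.95 ± 0.548 RPKM), LOXL4 (7.14 ± 0.261), LOXL2 (5.74 ± 0.527), LOX (1.22 ± 0.0741) and LOXL1 (0.470 ± 0.0705), again with no overlap between neighbours. LOXL4 made up 60.6%, 62.4% and 62.2% of the summed RPKM of the family in the siControl cultures and 29.2%, 27.5% and 30.8% in the siZEB1 cultures. LOXL3 made up 8.42%, 9.15% and 8.66% in siControl and 39.4%, 42.4% and 40.0% in siZEB1. The sum itself was 30, 31.4 and 30.8 RPKM in siControl and 25, 24.9 and 23.7 RPKM in siZEB1.

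Of the exonic bases of LOXL3, 19.3% overlap exons of DOK1 and HTRA2 on the opposite strand, and whether reads were counted by strand was not given in the sources used here. Both neighbours were lower in siZEB1, with log2 fold changes of -0.49 for DOK1 (adjusted p = 0.00101) and -0.69 for HTRA2 (adjusted p = 1.32e-05). The part of this overlap in the LOXL3 value was not tested. The opposite-strand overlap was 9.21% of exonic bases for LOXL1, 4.16% for LOXL4, 7.58% for THBS1 and 7.89% for SPARC.

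**Figure D2:**
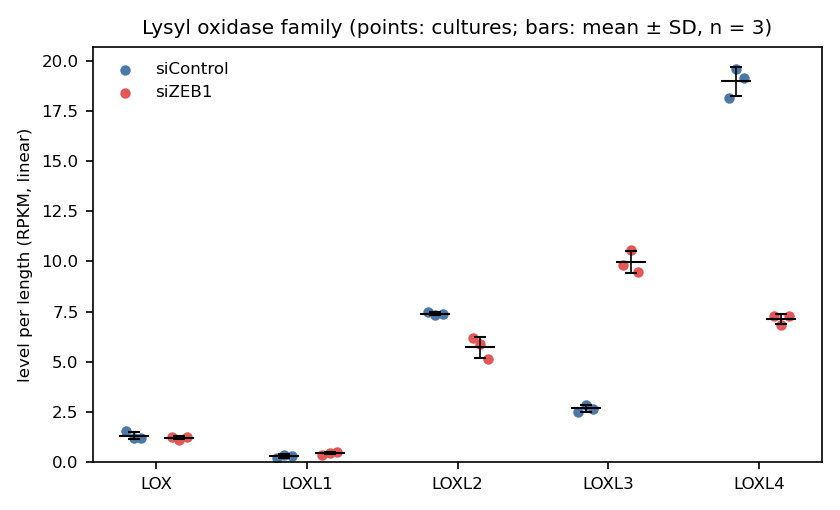
Level per length (RPKM, linear axis from 0) of the 5 lysyl oxidase genes in siControl (blue) and siZEB1 (red). Points are cultures and bars are mean ± SD (n = 3). LOXL4 falls from about 19.0 to 7.14 RPKM and LOXL3 rises from 2.69 to 9.95 RPKM, so the highest gene is LOXL4 in siControl and LOXL3 in siZEB1.

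ZEB1 binds E-boxes of the form CACCTG, and the stretches before the start sites of LOXL3 and LOXL4 are shown because these genes had the largest changes in each direction and each holds that motif. Both stretches come from RefSeq on GRCh38.p14, are 250 bases long, read 5′ to 3′ on the minus strand, and end at the base before the annotated start site. Capitals mark CACCTG, which was searched on both strands, so that CAGGTG counted as well. The LOXL3 stretch is chr2:74549527-74549776 and the LOXL4 stretch is chr10:98268195-98268444.
LOXL3: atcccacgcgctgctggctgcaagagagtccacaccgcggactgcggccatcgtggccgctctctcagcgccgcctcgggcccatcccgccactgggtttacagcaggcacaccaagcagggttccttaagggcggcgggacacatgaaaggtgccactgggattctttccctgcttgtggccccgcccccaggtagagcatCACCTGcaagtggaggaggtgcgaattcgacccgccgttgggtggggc
LOXL4: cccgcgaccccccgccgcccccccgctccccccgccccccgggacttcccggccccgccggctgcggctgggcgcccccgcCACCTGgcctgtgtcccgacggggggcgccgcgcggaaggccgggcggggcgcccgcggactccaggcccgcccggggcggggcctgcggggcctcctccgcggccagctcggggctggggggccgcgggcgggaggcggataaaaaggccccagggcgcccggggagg

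The motif begins 48 bases before the start site of LOXL3 and 169 bases before that of LOXL4. RefSeq gives LOXL3 a second, upstream start site whose window lacks these letters, and counts per gene do not tell which start site was used. Over all members, 43 of the 55 matched a RefSeq window of 250 bases before to 50 after a start site. Of their 57 windows, 9 held the motif (15.8%), against 7231 of all 35116 windows (20.6%). By gene, it was found in 1 of 9 matched members called lower, 2 of 5 called higher, 1 of 10 tested and not called and 4 of 19 not tested. Here a gene counted if any of its windows held the motif, whereas the 20.6% is a share of windows. The share by gene over all genes was not counted, so these counts by gene have no background beside them. The 2 higher members with the motif were LOXL3 and COL16A1. A match describes the letters in these windows, and binding was not measured in these data.

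The fibrillar collagens form the cross-striated fibrils of connective tissue, and 6 of the 11 genes were tested. COL27A1 (chromosome 9, 114155560 to 114312511, plus strand), a fibrillar chain of developing cartilage, was at 28.9, 30.1 and 28.2 CPM in siControl and at 13.3, 14.2 and 13.2 CPM in siZEB1. The groups lay far apart, and the log2 fold change of -1.10 (SE 0.085, adjusted p = 2.72e-08) was the largest among the tested collagens. COL5A1, whose chain regulates the diameter of type I fibrils, was at 5.69, 6.25 and 6.54 CPM in siControl and at 4.24, 2.34 and 4.34 CPM in siZEB1. One siZEB1 culture was well below the other 2, and all 3 were below siControl (log2 fold change -0.76, SE 0.19, adjusted p = 0.00367).

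COL1A1, which encodes the main chain of type I collagen, was at 10.2 ± 0.572 CPM in siControl and 8.70 ± 1.11 CPM in siZEB1 and was not called (log2 fold change -0.22, SE 0.12, adjusted p = 0.149). One siZEB1 culture, at 9.64 CPM, lay above the lowest siControl culture at 9.59 CPM. COL2A1, COL5A3 and COL11A2 were each below 5 CPM on average and were not called, with adjusted p between 0.124 and 0.610.

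Among the collagens that form networks, COL4A2 rose. It encodes the alpha-2 chain of type IV collagen, the scaffold of basement membranes. COL4A2 (chromosome 13, 110305812 to 110513209, plus strand) was at 15.6, 15.5 and 14.6 CPM in siControl and at 26.9, 24.5 and 24.2 CPM in siZEB1. Every siZEB1 culture was above every siControl culture, the log2 fold change being 0.73 (SE 0.086, adjusted p = 3.89e-06).

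COL4A1, the alpha-1 chain with which it trimerises, was too weak to test, at 5, 3 and 2 reads in siControl and 10, 13 and 7 reads in siZEB1. The lowest siZEB1 culture was above the highest siControl culture. Fitted with no filter on low counts, COL4A1 had a log2 fold change of 1.68 (adjusted p = 0.0352). It was the 1 member of the 25 weak ones called in that fit, where 3243 of all 32029 genes were lower and 2847 higher. At these few reads the value does not have the weight of the COL4A2 call. COL4A5 went from 1.13, 1.12 and 1.35 CPM to 0.742, 0.832 and 0.836 CPM and was not called, although its groups did not overlap (log2 fold change -0.57, SE 0.29, adjusted p = 0.136).

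COL4A1 and COL4A2 are transcribed away from each other, and the bases between their RefSeq start sites (GRCh38.p14), which lie 127 bases apart, are shown because both genes had more reads in siZEB1. The stretch is chr13:110307158-110307283, on the plus strand in the direction of COL4A2. Neither CACCTG nor CAGGTG was found in it, so it carries no capitals.
COL4A1/COL4A2: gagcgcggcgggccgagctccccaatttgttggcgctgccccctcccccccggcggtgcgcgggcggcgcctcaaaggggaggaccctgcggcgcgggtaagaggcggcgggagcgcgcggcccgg

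An antisense gene within the locus, COL4A2-AS2, went the other way. It had 59, 76 and 37 reads in siControl and 13, 14 and 22 reads in siZEB1, and its log2 fold change, -1.66 (SE 0.29), passed the test (adjusted p = 0.000185). Of the exonic bases of COL4A2, 0.492% lie opposite exons of another gene.

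Of the 9 FACIT collagens, which sit on the surface of fibrils, 3 were tested, and of these 1 fell, 1 rose and 1 was not called. COL9A3 (chromosome 20, 62816244 to 62841159, plus strand), a chain of type IX collagen of cartilage, was at 35.5, 38.1 and 40.6 CPM in siControl and at 26.5, 28.8 and 25.5 CPM in siZEB1. It was lower in all 3 siZEB1 cultures (log2 fold change -0.50, SE 0.082, adjusted p = 0.000117). COL16A1, of fibril-associated type XVI collagen, was at 25.6, 27.3 and 30.5 CPM in siControl and at 32.1, 33.4 and 36.6 CPM in siZEB1. The groups did not overlap, but the highest siControl and lowest siZEB1 cultures were close. The log2 difference of 0.29 (SE 0.086) passed at an adjusted p of 0.0117, and did not pass without siControl culture 1 (adjusted p = 0.0531) or without siZEB1 culture 3 (adjusted p = 0.0526).

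COL20A1, at 0.564, 0.670 and 0.934 CPM in siControl and 1.17, 0.832 and 1.99 CPM in siZEB1, was not called (log2 fold change 0.88, SE 0.36, adjusted p = 0.0607). It passed with no filter on low counts (adjusted p = 0.0445) and with at least 10 counts in every culture (adjusted p = 0.0459). Leaving out siControl culture 3 (adjusted p = 0.0325) or siZEB1 culture 2 (adjusted p = 0.0247) also brought it past the threshold.

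COL6A1 (chromosome 21, 45981737 to 46005050, plus strand) was the called chain of type VI collagen, which forms beaded filaments around cells. It was at 22.7, 25.8 and 27.5 CPM in siControl and at 15.7, 15 and 13 CPM in siZEB1. All siZEB1 cultures were below siControl, the log2 fold change being -0.80 (SE 0.10, adjusted p = 7.28e-06). COL6A2, encoded next to it on chromosome 21, was at 1.18, 1.43 and 2.07 CPM in siControl and 0.636, 0.884 and 1.41 CPM in siZEB1. The groups overlapped and the difference was not called (log2 fold change -0.66, SE 0.33, adjusted p = 0.119), but it passed without siZEB1 culture 3 (adjusted p = 0.0358). COL6A3 was at 0.555 ± 0.201 CPM in siControl and 0.524 ± 0.0536 CPM in siZEB1 (adjusted p = 0.891).

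COL13A1 and COL18A1, each the 1 tested gene of its class, fell. COL13A1 (chromosome 10, 69801867 to 69964275, plus strand) encodes a transmembrane collagen of cell-matrix contacts. It was at 20.2, 18.1 and 21.4 CPM in siControl and at 12.9, 13.2 and 11.5 CPM in siZEB1. The separation was complete, the log2 fold change being -0.67 (SE 0.099, adjusted p = 4.16e-05).

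COL18A1 (chromosome 21, 45405137 to 45513720, plus strand) encodes a basement membrane collagen whose C-terminal fragment is endostatin, and among the collagens it had the highest level per length, at 12.1 RPKM in siControl and 9.18 RPKM in siZEB1. It was at 96.6, 103 and 110 CPM in siControl and at 79.3, 78.2 and 77.2 CPM in siZEB1. The siZEB1 cultures were all lower (log2 fold change -0.40, SE 0.066, adjusted p = 0.000134). Of its exonic bases, 16.4% overlap exons of SLC19A1 on the opposite strand, which also fell (log2 fold change -0.41, adjusted p = 0.000186). The part of this overlap in the COL18A1 value was not tested.

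COL26A1 was higher at low counts, with 18, 22 and 27 reads in siControl and 37, 43 and 29 reads in siZEB1. The groups did not overlap in CPM, and the log2 fold change of 0.83 (SE 0.28) passed at an adjusted p of 0.0237. It no longer passed when siControl culture 1 or 2 was left out (adjusted p = 0.0874 and 0.0753) or siZEB1 culture 1 or 2 was left out (adjusted p = 0.0651 and 0.103). COL7A1, the anchoring fibril collagen of the epithelial basement membrane, was at 5.84 ± 0.749 CPM in siControl and 6.44 ± 0.446 CPM in siZEB1 and was not called (log2 fold change 0.15, SE 0.14, adjusted p = 0.425).

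**Figure D3:**
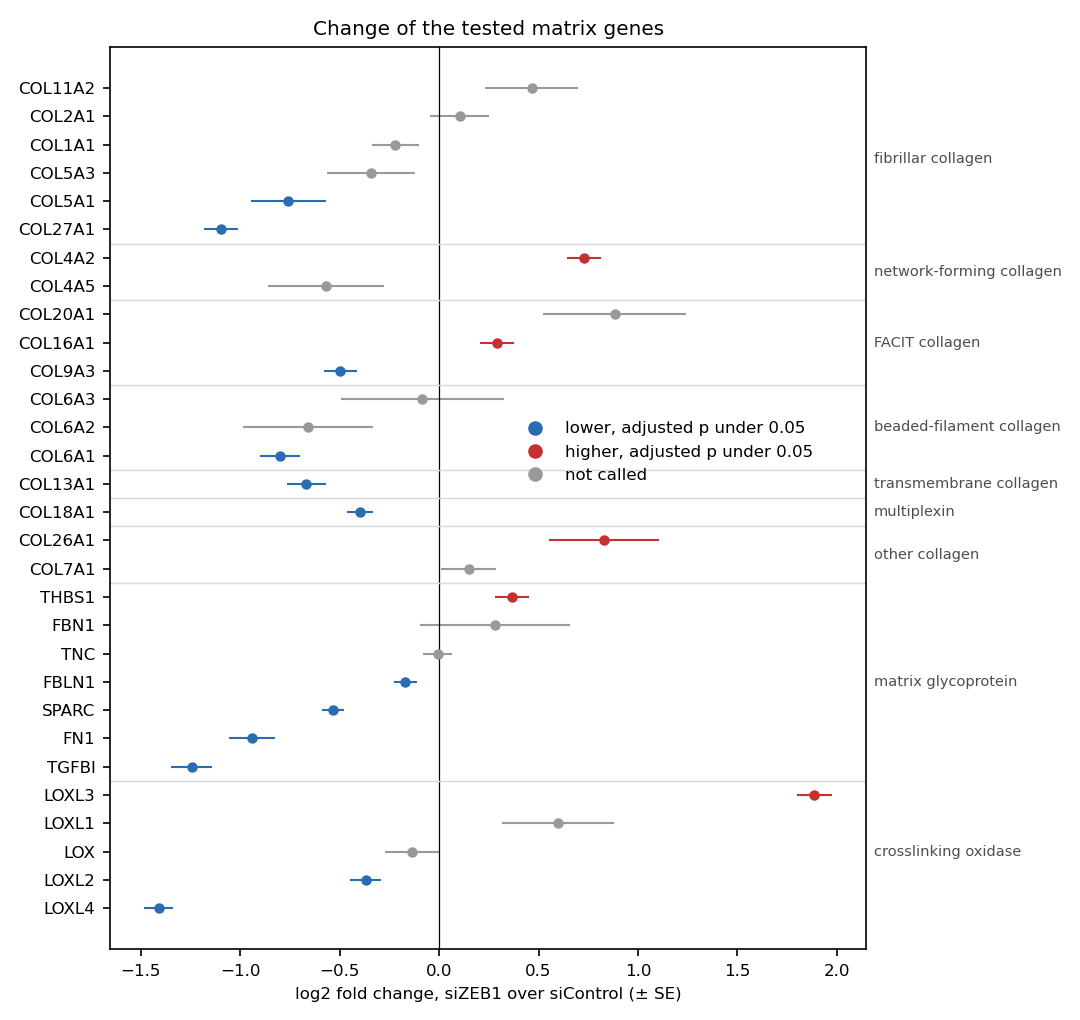
Log2 fold change, siZEB1 over siControl, of the 30 tested matrix genes by protein class, with SE as bars. Blue points were lower (12 genes) and red points higher (5 genes) at an adjusted p under 0.05, and grey points were not called (13 genes). LOXL3 lies furthest right at 1.89 and LOXL4 furthest left at -1.41.

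Some collagens, such as types I, IV, VI and IX, combine different chains in a trimer, and here the chains of these types were unequal in level per length. For type I, COL1A1 was at 1.03 ± 0.0585 RPKM in siControl and 0.886 ± 0.113 in siZEB1, whereas COL1A2 had 0, 1 and 2 reads in siControl and 1, 4 and 5 reads in siZEB1, or 0.00443 ± 0.00466 and 0.0156 ± 0.0097 RPKM. For type IV, COL4A2 was at 0.789 ± 0.0289 and 1.31 ± 0.0757 RPKM, and COL4A1 at 0.0107 ± 0.00467 and 0.0355 ± 0.0105 RPKM. Thus the weaker partner was well below the stronger one in all 6 cultures in both types.

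Type VI and type IX collagen had the same inequality among the chains analysed, which did not include COL6A5 and COL9A1. COL6A1 was at 4.74 ± 0.462 RPKM in siControl and 2.72 ± 0.266 in siZEB1, COL6A2 at 0.290 ± 0.0861 and 0.181 ± 0.0735, and COL6A3 at 0.0283 ± 0.0102 and 0.0267 ± 0.00273. COL9A3 was at 7.86 ± 0.528 RPKM in siControl and 5.57 ± 0.350 in siZEB1, while COL9A2 had 6, 0 and 1 reads in siControl and 0 in each siZEB1 culture. A count of 0 allows up to 3 reads, which is 0.156 to 0.159 CPM in the siZEB1 cultures, for counting error only.

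**Figure D4:**
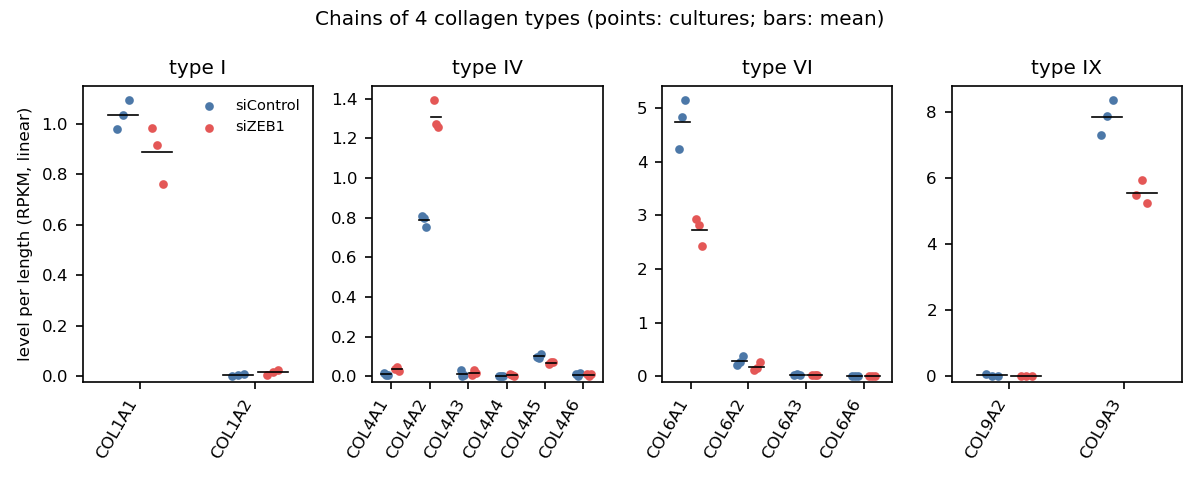
Level per length (RPKM, linear axis) of the chains of collagen types I, IV, VI and IX in siControl (blue) and siZEB1 (red). Points are cultures and bars are group means. Of the chains shown, 1 in each type is the highest in every culture: COL1A1, COL4A2 (0.789 to 1.31 RPKM, beside COL4A5 at 0.101 to 0.0677), COL6A1 (4.74 to 2.72 RPKM) and COL9A3. COL6A5 and COL9A1 are not shown.

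The 25 members that were not tested had at most 14 reads in any culture. Of these, 11 reached 5 reads in at least 1 culture, among them COL4A1, COL1A2 and COL9A2 given above. COL5A2 had 6, 1 and 7 reads in siControl and 10, 14 and 7 in siZEB1. COL8A2, of the network-forming type VIII collagen, had 6, 4 and 6 reads in siControl and 1, 3 and 0 in siZEB1, and COL10A1, the collagen of hypertrophic cartilage, had 7, 1 and 5 reads and then 1, 0 and 2. In reads, the COL8A2 groups did not overlap, those of COL5A2 met at 7 reads, and those of COL10A1 overlapped. Fitted with no filter on low counts, COL8A2, COL5A2 and COL10A1 were not called (edgeR quasi-likelihood test, adjusted p = 0.205, 0.12 and 0.259).

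COL17A1, the hemidesmosome collagen of epithelia, had 2, 2 and 2 reads in siControl and 5, 2 and 7 in siZEB1. FBN2, of the microfibril protein fibrillin-2, had 7, 4 and 6 reads and then 10, 5 and 12. COL15A1 had 3, 6 and 2 reads in siControl and 1, 2 and 8 in siZEB1, COL4A3 had 6, 0 and 1 and then 1, 6 and 3, and COL28A1 had 1, 0 and 1 and then 5, 3 and 0. These counts are too low to rank the cultures. The remaining 14 members, which include COL3A1, COL11A1, COL12A1 and THBS2, had at most 4 reads in any culture.

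The machinery that folds, modifies, exports and trims collagen was read from a list of 32 genes, of which 31 had a row and 28 were tested. Of the 28, 15 were lower (53.6%), 5 higher (17.9%) and 8 not called, with a median log2 fold change of -0.30, beside 21.2% lower and 19.0% higher among all genes tested. P4HB, the protein disulfide isomerase that is also the beta subunit of prolyl 4-hydroxylase, had the largest change. It had 5228, 5821 and 5375 reads in siControl and 1504, 1512 and 1404 reads in siZEB1, with levels of 262 ± 16.5 and 77.2 ± 3.38 CPM and a change of -1.76 on the log2 scale (SE 0.066, adjusted p = 4.52e-12).

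SEC23A and SEC24D, coat proteins of the vesicles that carry procollagen out of the endoplasmic reticulum, fell by log2 fold changes of -1.04 (SE 0.079, adjusted p = 2.37e-08) and -0.67 (SE 0.093, adjusted p = 2.35e-05). ADAMTS14, which cleaves procollagen N-propeptides, went from 13.1 ± 1.22 to 7.41 ± 0.566 CPM (log2 fold change -0.82, adjusted p = 2.23e-05). COLGALT2, a collagen galactosyltransferase (log2 fold change -0.70, adjusted p = 0.00461), and P3H3, a prolyl 3-hydroxylase family member (log2 fold change -0.68, adjusted p = 2.18e-05), were lower too. The 5 genes that rose were FKBP14, MIA2, KLHL12, FKBP10 and P4HA1, by log2 fold changes between 0.18 and 0.47. P4HA1 encodes a catalytic alpha subunit that pairs with the product of P4HB. SERPINH1, the collagen-specific chaperone HSP47, was singled out after its values were seen because it was the most abundant gene of the list. It was at 1163 ± 50.7 CPM in siControl and 1204 ± 70.3 CPM in siZEB1 and was not called (log2 fold change 0.049, SE 0.055, adjusted p = 0.502).

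Other matrix glycoproteins and proteoglycans were read from a list of 79 genes, of which 66 had a row and 34 were tested. Among the 34, 15 were lower (44.1%), 6 higher (17.6%) and 13 not called, with a median log2 fold change of -0.14. The background over all genes was 21.2% lower and 19.0% higher, and its median was -0.0055. EFEMP2 and FBLN5, fibulins of elastic fibres, had log2 fold changes of -1.09 (SE 0.17, adjusted p = 5.43e-05) and -0.85 (SE 0.22, adjusted p = 0.00495). THBS3, a thrombospondin, had 35, 29 and 30 reads in siControl and 11, 15 and 13 in siZEB1 (log2 fold change -1.13, SE 0.29, adjusted p = 0.00547), opposite in sign to THBS1. ECM1 (-0.91, adjusted p = 9.54e-05) and SRPX2 (-0.93, adjusted p = 0.0105) also fell. Of the exonic bases, 25.4% of THBS3 and 17.2% of SRPX2 overlap exons on the opposite strand. The part of this overlap in their values was not tested. SVEP1, a large adhesion protein, rose from 2.82 ± 0.461 to 5.47 ± 0.383 CPM (log2 fold change 0.95, SE 0.16, adjusted p = 0.000188). The count of higher genes was 3 without siControl culture 1 and 3 without siZEB1 culture 2. In these fits 2642 of all 15391 and 2396 of all 15355 genes tested were higher.

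**Figure D5:**
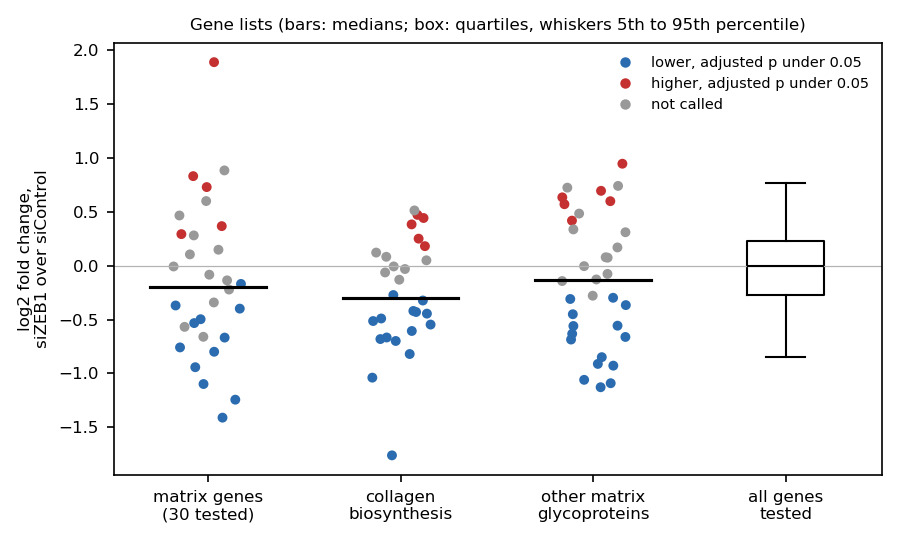
Log2 fold change, siZEB1 over siControl, of the tested matrix genes (30), the collagen biosynthesis list (28) and the other matrix glycoprotein list (34), beside all 14996 genes tested. Points are genes (blue lower, red higher, grey not called), bars are medians of -0.20, -0.30 and -0.14, and the box shows quartiles (-0.27 and 0.23) with whiskers at the 5th and 95th percentiles.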

How the data were processed

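RNA was sequenced from 3 siControl and 3 siZEB1 cultures. The authors deposited 1 table of raw read counts per gene for each culture. The submitters' processing notes name Trimmomatic, HISAT2, SAMtools, featureCounts and the hg38 build. Their settings, the annotation and the use of strand were not given in the sources used here. The whole table of 32029 genes was fitted with edgeR 4.0.16 (R 4.3.3) after filterByExpr and TMM scaling, which left 14996 genes. The quasi-likelihood test was two-sided, Benjamini-Hochberg adjusted over those genes, and called at an adjusted p under 0.05. The biological coefficient of variation was 6.58%. The SE is the absolute log2 fold change divided by the square root of F. CPM used TMM factors. Exon lengths, overlaps and positions came from GENCODE 29 on GRCh38, matched by identifier for 31059 genes. In simulated counts over 14996 genes, with 200 changed by 1 log2 unit, 81.5% were recovered and 6.32% of calls were false. In the data 6035 genes were called, and called members such as FBLN1 (log2 fold change -0.17) changed by less. These rates therefore do not carry over to the calls made here.

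The members, gene lists and tests were chosen with earlier results of these data known. Members called with a mean of at least 1 CPM are given with full statistics, other tested members by value or count, and weak members by raw reads. From each of the other lists up to 6 called genes with the largest absolute log2 fold change and at least 1 CPM are named, and the 5 higher biosynthesis genes and SERPINH1 were added after their values were seen. Alternatives were DESeq2 1.42.0, other scaling, filters and thresholds, a replicate block and leaving out each culture.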

Additional observations from a re-analysis of the deposited data

How the results depend on the processing

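Of the 17 called members, 14 kept their call in every one of the 12 alternatives that refitted the data, and none of the 17 changed sign. The exceptions were COL16A1, FBLN1 and COL26A1, given above. Where calls needed a fold over 1.5 together with a raw p below 0.001, the members called lower were 7 in place of 12 and those called higher 2 in place of 5. Under the same rule the collagen biosynthesis genes were 6 in place of 15 lower and 0 in place of 5 higher, and the other matrix glycoproteins 5 in place of 15 lower and 3 in place of 6 higher. Where they needed that fold and a raw p below 0.05, there were 7 members lower and 5 higher, 7 collagen biosynthesis genes lower and 0 higher, and 9 other matrix glycoproteins lower and 5 higher. These 2 rules ask for a larger change. The share of all genes that passed them was not counted here, so these counts have no background beside them. Leaving out each culture gave 11 to 12 members lower and 4 to 7 higher, 12 to 14 biosynthesis genes lower and 4 to 5 higher, and 12 to 15 other glycoproteins lower and 3 to 6 higher. The lowest count of 3 came without siControl culture 1 and without siZEB1 culture 2. Over all genes, leaving out each culture gave 2637 to 3311 lower and 2305 to 2928 higher, of 15329 to 15391 tested. The log2 fold change of COL6A3 ranged from -0.35 to 0.15 over the left-out cultures and was positive at 0.15 without siControl culture 2. That of TNC ranged from -0.059 to 0.048, at 0.048 without siControl culture 2 and 0.0089 without siZEB1 culture 2, and the cause was not tested. With no filter on low counts, COL4A1 was the 1 member called of the 25 weak ones. In that fit 3243 of all 32029 genes were lower and 2847 higher.

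Same-numbered cultures did not deviate together (correlations of -0.052, -0.088 and -0.20), and no culture correlated best with its own number. With the replicate number as a block, 11 members were lower and 5 higher, 13 biosynthesis genes lower and 4 higher, and 14 other glycoproteins lower and 4 higher. Over all 14996 genes tested, this fit gave 2679 lower and 2289 higher.

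The limits are of depth and design. The 25 weak members, with at most 14 reads in a culture, have no call in the reported fit. Among the members, exons shared with opposite-strand genes, 19.3% of LOXL3 and 16.4% of COL18A1, could change the counts of these genes if strand was not used. In which direction depends on settings that were not given. RNA levels of 1 cell line at 1 time do not give protein or deposited matrix.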

Other observations

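Other matrix genes outside the rule also differed, and those named here were chosen after their values were seen. CCN1, a matricellular protein gene, rose from 147 ± 2.52 to 238 ± 2.34 CPM (log2 fold change 0.69, SE 0.056, adjusted p = 4.13e-08). LTBP2 rose from 15.5 ± 1.24 to 23.5 ± 0.662 CPM (log2 fold change 0.60, adjusted p = 4.45e-05), while LTBP4 of the same latent TGF-beta binding family fell (log2 fold change -0.69, adjusted p = 3.62e-05) and LTBP1 and LTBP3 were not called (adjusted p = 0.705 and 0.523). NID1 (log2 fold change -0.45, adjusted p = 0.00047), AGRN (-0.31, adjusted p = 0.000697) and TINAGL1 (-0.63, adjusted p = 6.27e-07) fell. NID2, the other nidogen gene (log2 fold change 0.72, adjusted p = 0.14), and HSPG2 (0.074, adjusted p = 0.46) were not called.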
